A study of Mus musculus with 5 samples.

Results

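The genes of the proteasome were followed in cultured pro-B cells (early precursors of B cells) from mouse fetal liver after loss of the transcription factor Ebf1 (early B-cell factor 1). Members were all array probes whose annotated gene symbol begins with Psma, Psmb, Psmc, Psmd, Psme, Psmf or Psmg and a digit. The rule found 79 probes of 45018 features on the array, for 49 of 19087 named genes. Of these, 47 encode subunits, activators, an inhibitor or assembly factors of the proteasome. The other two, Psmc3ip, a gene of meiotic recombination, and Psme3ip1, whose product binds the activator PA28 gamma, share only the prefix. Psme2, which encodes the second PA28 chain, had no probe of its own name and was not analysed here.

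Fetal livers were taken 16.5 days post coitum and the cells grown with interleukin-7 on OP-9 stromal cells, a bone marrow line, so RNA of that line may be present. All 5 cultures received 4-hydroxytamoxifen for 24 hours to switch on ER-Cre, a Cre recombinase that is held inactive until this drug binds it, and RNA was taken 4 days later. The 2 controls were Ebf+/fl, with 1 floxed and 1 intact Ebf1 allele, and carry the numbers 3 and 6 in their titles. The 3 others, numbers 4, 5 and 7, were Ebf fl/fl and are called deleted here. Controls therefore share the Cre, the drug and the loss of 1 allele, and the comparison is of both alleles against 1. The sources used here do not give what drives ER-Cre or whether samples came from separate embryos, so p-values measure the spread between these samples only. The titles also open with a number, 111 for the controls and 93 for the deleted samples. What that number marks is not explained, and it cannot be told apart from genotype.

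The proteasome is the protease that degrades ubiquitin-tagged proteins in the cytosol and nucleus. Its 20S core is a barrel of alpha rings, which gate the entry, around beta rings, of which Psmb5, Psmb6 and Psmb7 carry the cutting sites. The 19S cap has a ring of ATPases (Psmc genes) that unfold substrates and non-ATPase subunits (Psmd genes) that bind ubiquitin or remove it. In lymphocytes and after interferon, newly built cores take up the immunoproteasome subunits Psmb8, Psmb9 and Psmb10 in place of Psmb5, Psmb6 and Psmb7, which shifts the peptides made for MHC class I. All levels below are log2 intensities with the array's own 75th percentile at 0, and all changes are deleted minus control on that scale. Levels of different probes are not comparable.

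Ebf1 had 3 probes. The probe for AK036716 stood at -1.47 and -1.30 in controls 3 and 6, and at -4.19, -5.01 and -4.02 in deleted 4, 5 and 7 (log2 fold change -3.02, SE 0.35, limma adjusted p = 0.0037, with 22647 probes tested). The NM_007897 probe, brightest of the 3, stood at 2.46 and 2.505 in controls and 2.09, 2.34 and 2.27 in deleted cells (-0.25, adjusted p = 0.30). The AK042875 probe changed by 0.44 without passing (adjusted p = 0.27). Only the AK036716 probe passed the threshold. The NM_007897 probe was also lower in every deleted array than in both controls, while the AK042875 probe was higher in every one. Where the probes lie relative to the deleted part was not determined here. Summed intensity per array ranged from 66780400 to 79527100, arrays of a group correlated at 0.979 to 0.982, and arrays of different groups at 0.926 to 0.959. The summed level of 8 measured B-lineage markers of a list of 9, in multiples of the 75th percentile, was 1418 to 1520 in controls and 705 to 912 in deleted cells. The list includes Ebf1 itself, and bright genes weigh most in the sum. Vpreb1, a bright one, had a mean level of 8.76 in controls and 5.84 in deleted cells. Cd79b, also bright, had 8.35 and 8.31. The sum is therefore no measure of the share of B-lineage cells, which was not tested. Of the 8 B-lineage markers, 7 had a negative log2 fold change, and Vpreb1 (-2.92), Igll1 (-4.39) and Rag1 (-1.33) were called lower. Blnk, Pax5 and Ebf1 had -0.55, -0.53 and -0.25 without passing, and Cd79a and Cd79b had 0.01 and -0.04. The summed level of 9 stromal markers was 4.53 to 5.55 in controls and 4.52 to 6.76 in deleted cells. Dcn and Lum lay in the lowest 40 percent of features on every array. Of 6 stromal markers tested, 5 had a positive log2 fold change and Sparc was called higher (1.63, limma adjusted p = 0.0053), at -3.31 and -3.10 in controls and -1.60, -1.64 and -1.49 in deleted cells, while most of the sum came from Cdh11 (0.16, adjusted p = 0.65). The summed level of 8 measured macrophage and dendritic markers of 10, led by Lyz2, was 4.47 to 15.3 in controls and 2.91 to 3.08 in deleted cells. Fcgr1 was called higher and Itgam lower in deleted cells. Fcgr1 lay above the 40th percentile in the 3 deleted arrays only, so the size of its change is poorly fixed. The part of these shifts in the results below was not tested.

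Most proteasome genes differed little between the groups. Of the 49 genes, 48 were tested, that is, at least 2 of 5 arrays lay above their 40th percentile. At a limma adjusted p under 0.05 over 13419 genes, 1 was higher in deleted cells (Psmg1), 2 were lower (Psma8 and Psmb9) and 45 did not pass. Over all genes tested 8.58% were called higher and 8.74% lower, 17.3% in either direction. The tested proteasome genes had a median log2 fold change of 0.09, against 0.10 for all genes tested. Their log2 fold changes had a median size of 0.18, against 0.38 over all genes tested. At an unadjusted p under 0.05 there were 8 of 48, or 16.7%, against 33.4% of all genes tested. Without the prefix matches Psmc3ip and Psme3ip1 there were 7 of 46, or 15.2%.

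The precision behind the genes that did not pass was mostly better than a 2-fold change. The 95% interval of 44 of 48 genes lay wholly within 2-fold in either direction, against 50.7% of all genes tested. The exceptions were Psma8, Psmb9, Psmg1 and Psmd13. Most of these genes are bright: 43 of 49 lay above the 75th percentile on every array, and their median SE was 0.16, against 0.22 over all genes. The groups did not overlap for 23 of 48 genes, close to the 51.7% of all genes tested.

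**Figure D1:**
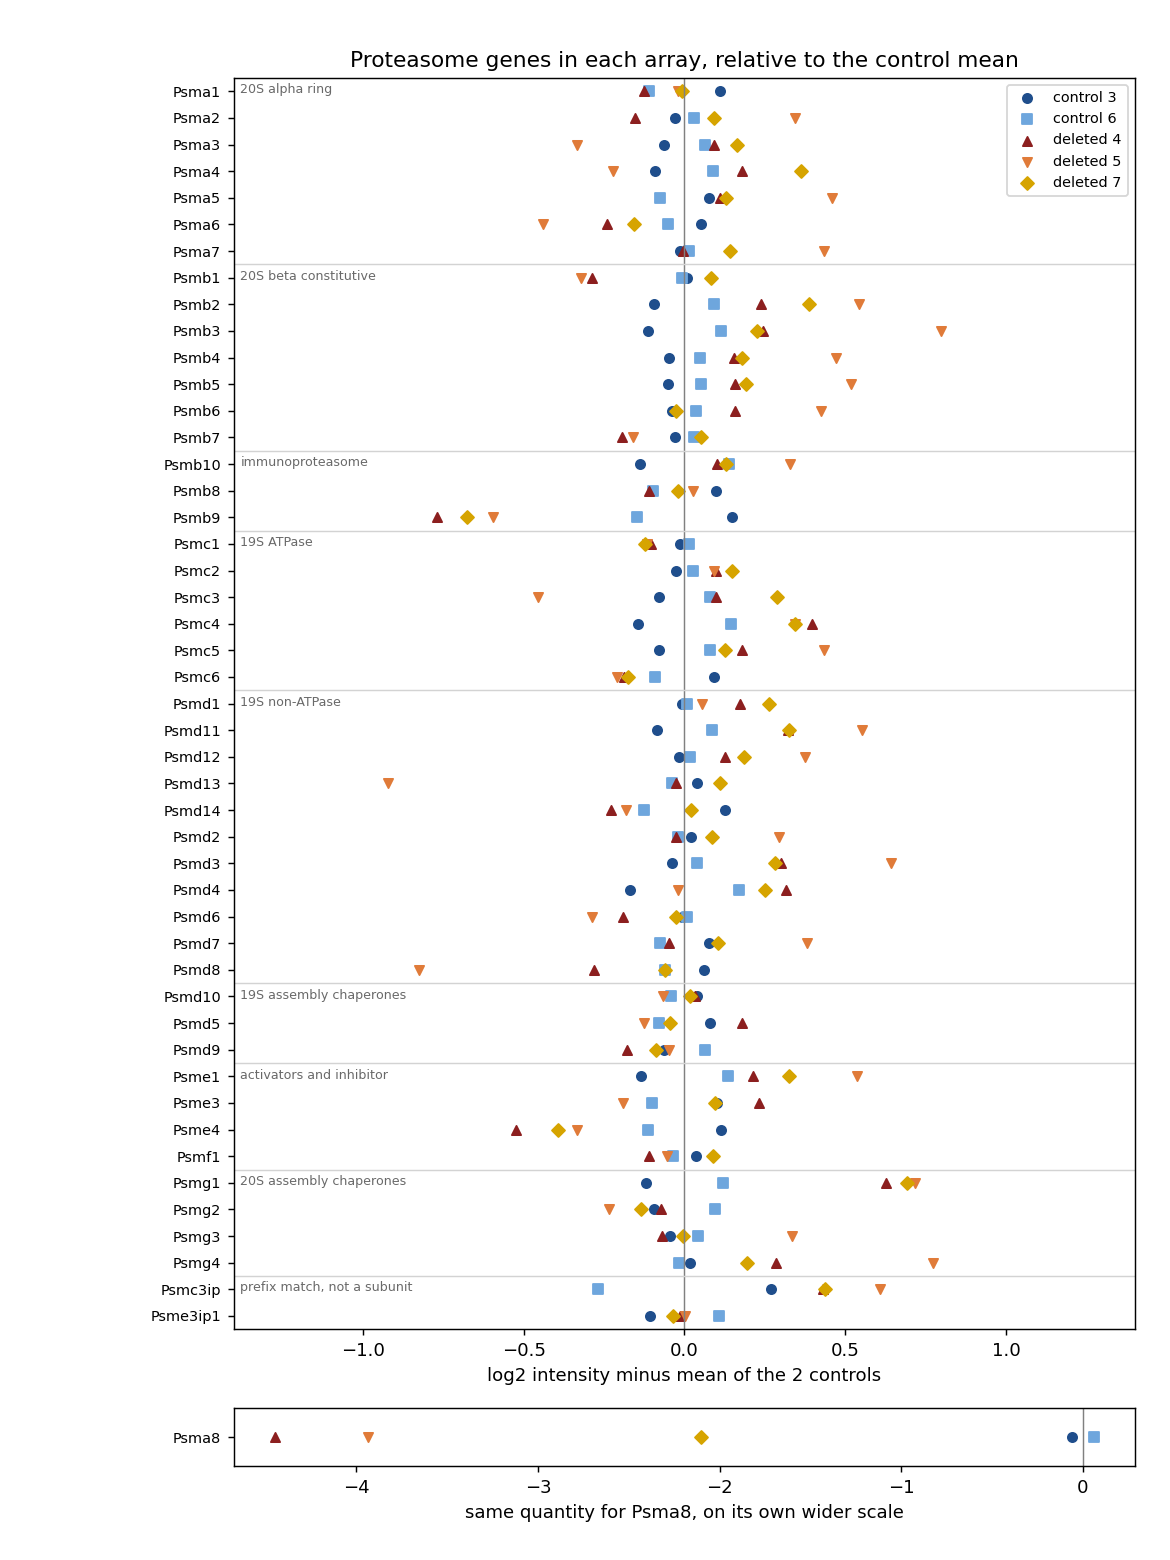
Level of each tested proteasome gene in the 5 arrays (points) as log2 intensity minus the mean of the 2 controls, by subcomplex, with Psma8 on its own wider scale at the bottom. Most points lie within 0.5 of the control mean, Psmb9 lies below it and Psmg1 above it in all 3 deleted arrays, and deleted 5 has the widest scatter.

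**Figure D2:**
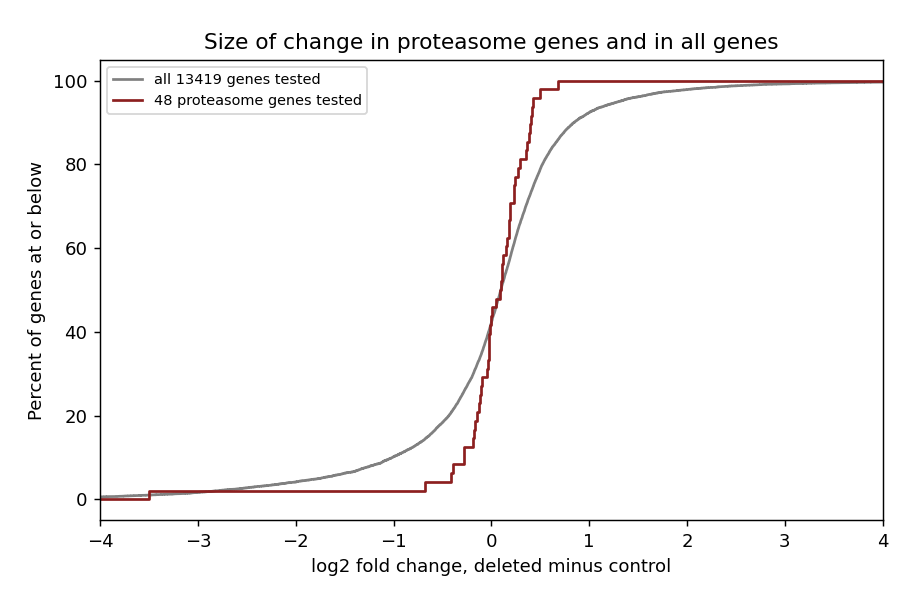
Cumulative percent of genes (vertical axis) at or below a given log2 fold change, deleted minus control (horizontal axis, drawn from -4 to 4), for 48 proteasome genes and all 13419 genes tested. The curves cross the middle at nearly the same place (medians 0.09 and 0.10), and the proteasome curve is steeper.

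The immunoproteasome subunits did not move together. Psmb9, the subunit that replaces Psmb6, stood at 4.66 and 4.36 in controls 3 and 6 and at 3.74, 3.91 and 3.83 in deleted 4, 5 and 7. Every deleted array lay below both controls. Psmb9 fell by 0.68 on the log2 scale (SE 0.15, 95% interval -1.04 to -0.32, limma adjusted p = 0.0275), which is 1.60-fold. Psmb9 rested on 1 probe. In bulk RNA, fewer cells of a type and less RNA per cell cannot be told apart. The call was lost without control 3 (log2 fold change -0.53, adjusted p = 0.19), deleted 4 (0.0846), deleted 5 (0.0501) or deleted 7 (0.0585), and without the variance trend (0.0641), though the fall kept its sign in each.

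Psmb8, which replaces Psmb5, stood at 4.77 and 4.57 in controls and 4.56, 4.70 and 4.65 in deleted cells. The groups overlapped, the log2 fold change was -0.03 (SE 0.14, 95% interval -0.36 to 0.30, adjusted p = 0.89), and its other probe gave -0.06. Psmb10, which replaces Psmb7, stood at 5.27 and 5.54 in controls and 5.50, 5.73 and 5.53 in deleted cells, with overlapping groups (0.19, SE 0.16, adjusted p = 0.47). The thymus-specific subunit gene Psmb11 was too dim to test: of its 2 probes, 1 exceeded the 40th percentile on 1 array, control 6.

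None of the constitutive catalytic subunits passed. Psmb5 stood at 3.18 and 3.28 in controls and 3.38, 3.74 and 3.42 in deleted cells, with no overlap between groups (0.29 on the log2 scale, 95% interval -0.09 to 0.67, adjusted p = 0.26). Psmb6 had 4.77 and 4.84 against 4.96, 5.23 and 4.78, a log2 fold change of 0.18 (adjusted p = 0.50). Psmb7 had 2.70 and 2.76 against 2.54, 2.57 and 2.78, a log2 fold change of -0.10 (adjusted p = 0.66).

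Each immunoproteasome subunit was then set against its constitutive partner within each array. Psmb9 minus Psmb6 was -0.11 and -0.48 in controls and -1.22, -1.32 and -0.95 in deleted cells, with no overlap and a difference of -0.87, a 1.82-fold shift. Psmb8 minus Psmb5 was 1.59 and 1.29 in controls and 1.17, 0.95 and 1.23 in deleted cells, with a difference of -0.32. Psmb10 minus Psmb7 was 2.57 and 2.78 in controls and 2.97, 3.16 and 2.75 in deleted cells, a difference of 0.29, and here the groups overlapped. A further pair was chosen after its values were seen: Psmb9 minus Psmb8, 2 subunits of the same kind, was -0.11 and -0.21 in controls and -0.82, -0.78 and -0.82 in deleted cells, a difference of -0.65.

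The exact permutation test over the 5 arrays (two-sided) gave p = 0.2 for each of these pairs but Psmb10 minus Psmb7, for which it gave p = 0.4. With 2 arrays against 3 the smallest p it allows is 0.2, so no pair could pass, and after Benjamini-Hochberg adjustment over 4 pairs the exact p-values were 0.267 and 0.4. Only the change of a pair between groups can be read, not which subunit of a pair was the more abundant.

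**Figure D3:**
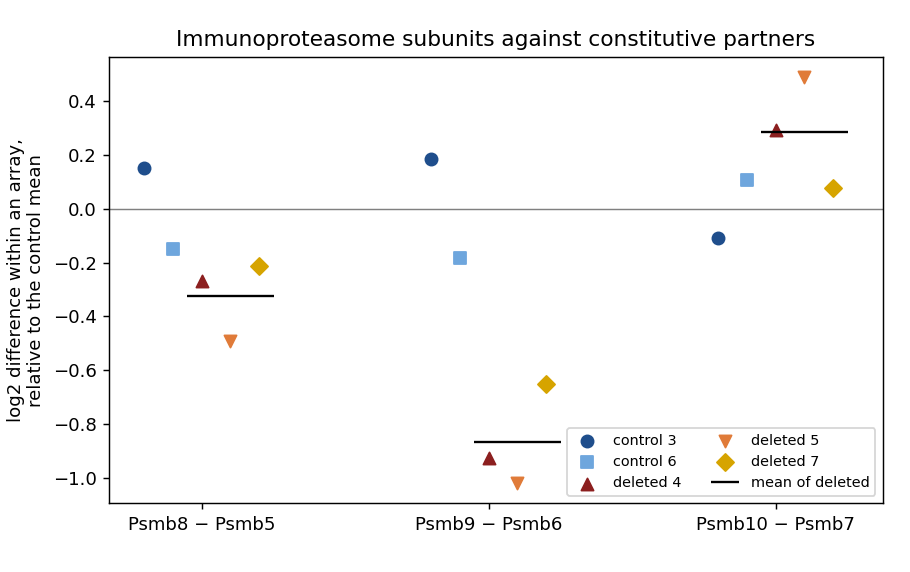
Immunoproteasome subunit minus its constitutive partner within each array (points, 5 arrays), as log2 difference relative to the control mean, with the mean of the 3 deleted arrays as a horizontal line. Psmb9 minus Psmb6 is lowest, with a difference of -0.87, while Psmb10 minus Psmb7 lies 0.29 above with overlapping groups.

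Psmb9 has a divergent neighbour, Tap1, a chain of the transporter that carries proteasome products into the endoplasmic reticulum. The annotated start sites of Psmb9 and Tap1 lie on opposite strands 226 bases apart, and their promoter windows share 275 bases. The windows of Psmb9 (chr17:34187281-34187580, minus strand) and of the nearby Psmb8 (chr17:34197945-34198244, plus strand), from RefSeq on GRCm38.p6, are shown because the first gene fell and the second did not. Each runs from 250 bases before to 50 bases after the annotated start. Capitals mark a match to any of 4 motifs searched on both strands: the Ebf1 core (CCCNNGGGA), the interferon-stimulated response element core (GAAANNGAA), the CCAAT box (CCAAT) and the antioxidant response element (TGACNNNGC).
Psmb9: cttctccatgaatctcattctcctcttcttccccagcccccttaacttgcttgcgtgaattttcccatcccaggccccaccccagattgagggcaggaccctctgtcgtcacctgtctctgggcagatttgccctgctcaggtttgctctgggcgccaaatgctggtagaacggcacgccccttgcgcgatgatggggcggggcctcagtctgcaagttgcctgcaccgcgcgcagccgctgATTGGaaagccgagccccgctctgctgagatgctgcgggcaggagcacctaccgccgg
Psmb8: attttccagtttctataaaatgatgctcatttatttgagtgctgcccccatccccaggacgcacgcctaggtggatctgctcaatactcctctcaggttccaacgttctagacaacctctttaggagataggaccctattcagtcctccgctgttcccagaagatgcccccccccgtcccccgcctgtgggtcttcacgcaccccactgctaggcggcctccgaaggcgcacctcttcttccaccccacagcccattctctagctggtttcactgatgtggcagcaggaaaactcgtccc

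The only match in these windows was a CCAAT box, read here as ATTGG on the other strand, starting 8 bases before the Psmb9 start. Of 32851 promoter windows in the reference table, 37.4% hold a CCAAT box, 6.56% the Ebf1 core, 8.56% the interferon core and 12.4% the antioxidant element. Among 44 windows of 41 genes found by the prefix rule, 16, 3, 7 and 6 held these motifs in the same order, that is 36.4%, 6.82%, 15.9% and 13.6%. A match describes the letters only. Psmb5 and Psmb6 each held 1 antioxidant element and no other of these motifs.

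Among genes of class I peptide supply and presentation, the call went both ways. Of 11 genes tested, 3 were higher and 4 lower in deleted cells, or 27.3% and 36.4%, against 8.58% and 8.74% of all genes tested. The groups were apart in all 11, against 51.7% of all genes tested. For Tapbp they were barely so, with 5.2968 in control 6 and 5.2971 in deleted 7. Tap1 stood at 1.77 and 1.68 in controls and 0.66, 0.16 and 1.06 in deleted cells, and fell by 1.10 (SE 0.26, limma adjusted p = 0.036). Deleted 5 was the lowest array for Tap1, and Tap1 did not pass without any one of control 3, control 6, deleted 4 and deleted 5 (adjusted p = 0.175, 0.101, 0.0714 and 0.0547). It also did not pass without scaling (0.0799), with median scaling (0.0515), without the filter (0.0512) or without the variance trend (0.0731). Tap2, the other transporter chain, had a log2 fold change of -0.47 (adjusted p = 0.14). Both class I heavy chain genes fell, H2-K1 by a log2 change of -1.12 (SE 0.20, adjusted p = 0.015) and H2-D1 by one of -1.499 (SE 0.20, adjusted p = 0.0052). The light chain gene B2m also fell (-0.72, SE 0.19, adjusted p = 0.046). Class I probes can share signal between related genes, and other H2-K1 probes gave log2 fold changes down to -2.53.

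The higher genes of this list were Calr, Pdia3 and Tapbpl. The chaperone genes Calr and Pdia3 rose by 1.33 (SE 0.15, adjusted p = 0.0033) and 0.73 (SE 0.15, adjusted p = 0.024), and Tapbpl, a peptide editor, by 0.93 (SE 0.20, adjusted p = 0.027). B2m lost its call without control 3 (adjusted p = 0.203), control 6 (0.157), deleted 4 (0.0917) or deleted 5 (0.0502). B2m also lost it without scaling (0.0938), with median scaling (0.0674), with quantile normalization (0.0652), without the filter (0.0747), with the mean of its probes (-0.59, 0.127) and without the trend (0.0861). H2-K1 lost its call without control 3 (0.0547) or control 6 (0.0862). Pdia3 lost it without control 3 (0.0979), control 6 (0.102) or deleted 4 (0.0556), and Tapbpl without control 3 (0.160), deleted 4 (0.0650) or deleted 5 (0.0749). Without scaling or without the trend, neither Pdia3 (0.0502 and 0.0581) nor Tapbpl (0.0800 and 0.0607) passed. Tap1, H2-D1, Tapbpl and Pdia3 rested on 1 probe each.

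Of the regulators of immunoproteasome genes, 6 of 8 were measured and 1 passed, or 16.7%, against 17.3% of all genes tested. Nlrc5, known as a transactivator of class I genes, Tap1 and Psmb9 among them, stood at -1.10 and -2.12 in controls and -4.74, -5.18 and -3.47 in deleted cells. It fell by 2.85 (SE 0.57, limma adjusted p = 0.021), with no overlap between groups. Nlrc5 rested on 1 probe, and deleted 5 lay only just above its 40th percentile, so the size of the fall is poorly fixed. Leaving out control 3 (-2.34, adjusted p = 0.14) or deleted 5 (-2.49, adjusted p = 0.0621) ended the call. Irf1, the interferon regulatory factor that acts on Psmb9 and Tap1, stood at 5.08 and 5.05 against 5.29, 5.33 and 5.00 (0.14, adjusted p = 0.58), though its other tested probe gave 1.69. Irf2, Irf8, Stat2 and Rela had log2 fold changes of 0.44, 0.06, 0.31 and 0.32 and did not pass.

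**Figure D4:**
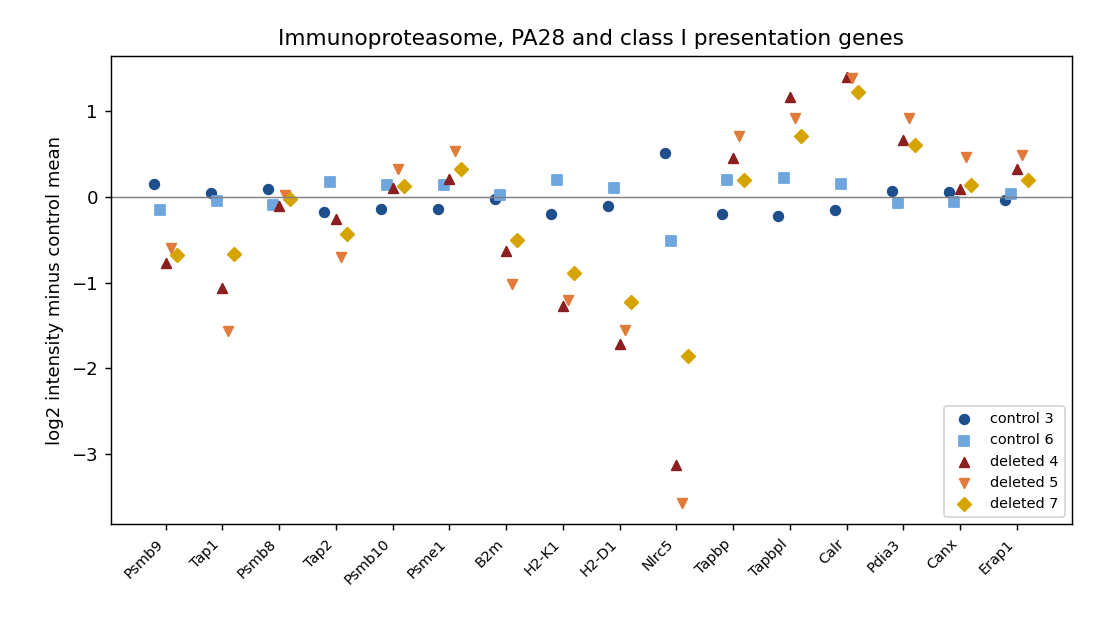
Immunoproteasome subunits, the PA28 gene Psme1 and genes of class I presentation in the 5 arrays (points), as log2 intensity minus the control mean. Psmb9, Tap1, B2m, H2-K1, H2-D1 and Nlrc5 lie below the controls in all 3 deleted arrays, Psmb8 and Psmb10 overlap with them, and Tapbpl, Calr and Pdia3 lie above.

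In the alpha ring, 7 of 8 genes did not pass. Their log2 fold changes ran from -0.28 in Psma6 to 0.23 in Psma5. Psma8, which encodes an alpha subunit known from male germ cells, was the exception. It stood at -2.13 and -2.005 in controls and at -6.51, -6.00 and -4.17 in deleted 4, 5 and 7. Psma8 fell by 3.50 (SE 0.69, 95% interval -5.14 to -1.85, limma adjusted p = 0.020), or 11.3-fold. Only deleted 7 of the deleted arrays lay above the 40th percentile, so the size of the fall is poorly fixed. Psma8 rested on 1 probe, for AK010717, and its call was lost when control 3 (adjusted p = 0.104), control 6 (0.0763) or deleted 5 (0.0706) was left out.

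In the constitutive beta ring, 0 of 7 genes passed by limma, and none had an unadjusted p under 0.05. Psmb3, a structural subunit, had the largest difference: 5.58 and 5.81 in controls against 5.94, 6.49 and 5.92 in deleted cells (0.42, SE 0.22, adjusted p = 0.23). Deleted 5 was its highest array, and its second probe gave 0.34. Psmb1 lay at the other end with -0.18 (adjusted p = 0.51).

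In the 19S cap, 0 of 6 ATPase genes and 0 of 11 non-ATPase genes passed by limma, and 1 and 2 of them had an unadjusted p under 0.05. Psmc4 stood at 3.72 and 4.00 in controls and 4.26, 4.20 and 4.20 in deleted cells (0.36, SE 0.14, adjusted p = 0.13), and Psmc6 had -0.19 (adjusted p = 0.37). Psmd3 stood at 5.88 and 5.96 against 6.22, 6.56 and 6.20 (0.41, SE 0.17, adjusted p = 0.15). Psmd11, a scaffold subunit, was named after its values were seen and had 0.40 (SE 0.15, adjusted p = 0.11). Psmd8 had the largest decrease of the cap, at 3.50 and 3.38 against 3.16, 2.61 and 3.38 (-0.39, SE 0.23, adjusted p = 0.30), with overlapping groups. The ubiquitin receptor gene Psmd4 and the deubiquitinase gene Psmd14 had log2 fold changes of 0.18 and -0.13. The base assembly chaperones Psmd5, Psmd9 and Psmd10 had 0.00, -0.11 and -0.01, and did not pass.

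The activators and the inhibitor likewise did not pass. Psme1, the PA28 alpha chain, which interferon induces, stood at 4.98 and 5.25 in controls and 5.33, 5.65 and 5.44 in deleted cells (0.36, SE 0.17, adjusted p = 0.19). Psme4, which encodes the activator PA200, stood at 5.46 and 5.23 against 4.82, 5.02 and 4.96, with no overlap (-0.42, SE 0.15, adjusted p = 0.10). Psme4 passed with quantile normalization (-0.42, adjusted p = 0.047). Its other probes gave -0.49, -0.37 and 0.41. Psme3, the nuclear PA28 gamma, and the inhibitor gene Psmf1 had 0.05 and -0.03.

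Of the 4 chaperones that assemble the 20S core, 1 was higher. Psmg1 stood at -0.69 and -0.45 in controls and at 0.05, 0.14 and 0.12 in deleted cells. The deleted arrays were close together and all above the controls. Psmg1 rose by 0.68 (SE 0.16, 95% interval 0.29 to 1.07, limma adjusted p = 0.036), or 1.60-fold, on 1 probe. The call was lost without any one of the 5 arrays (adjusted p from 0.0657 to 0.200), without scaling (0.200), without the filter (0.0543) and without the variance trend (0.0550). Its partner in the same heterodimer, Psmg2, had -0.15 (adjusted p = 0.51), and Psmg3 and Psmg4, the other pair, had 0.09 and 0.42 without passing. The prefix matches Psmc3ip and Psme3ip1 had 0.49 and -0.02.

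Deleted 5 carried much of the scatter. Around the control mean, the middle 50% of proteasome genes spanned 0.65 in deleted 5, 0.31 in deleted 4 and 0.23 in deleted 7. Deleted 5 was the highest array for 20 of 48 genes. Neither that share nor the span was determined over all genes, whose median deviation from the control mean was largest in deleted 5 (0.18). Deleted 5 was the lowest array for 13 genes, or 27.1%, against 14.0% of all genes tested. Control 3 was the lowest for 18 genes, or 37.5%, against 32.0% of all genes tested. Psmd13 was the widest case, at 1.13 and 1.05 in controls and 1.06, 0.17 and 1.20 in deleted cells. Probes of 1 gene could part there: the brighter Psmc5 probe stood at 1.85 on average in controls and 2.29 in deleted 5, while the other stood at 0.67 in controls and 0.04 in deleted 5. Of 19 genes with 2 or more tested probes, 5 had probes of opposite sign. Over probes, 72 of 79 were tested, 1 was higher (Psmg1) and 2 lower (Psma8 and Psmb9), against 6.84% and 7.69% of 22647 probes, or 14.5% in either direction. Deleted 5 also had the lowest 75th percentile, 306 against 389 to 430 in the other arrays, and the part of this in the scatter was not tested.

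Genes around the proteasome were called at shares of 0 to 16.7% in each list below, against 17.3% of all genes tested. Of 7 measured proteasome-associated genes outside the prefix, of 10 listed, 0 passed by limma and 1 had an unadjusted p under 0.05, Zfand5 (0.48, SE 0.17, adjusted p = 0.10). The core maturation factor Pomp and the cap subunit Sem1 had -0.01 and 0.05. Of 6 measured regulators of proteasome genes, 1 was higher, Nfe2l1, a transcription factor known to raise proteasome gene transcription when the proteasome is impaired. On its 1 probe, Nfe2l1 stood at 2.65 and 2.89 in controls and 3.54, 3.87 and 3.32 in deleted cells. It rose by 0.81 (SE 0.20, limma adjusted p = 0.036), and its call was lost without control 3 (0.205), control 6 (0.0763), deleted 4 (0.0766), deleted 5 (0.0640) or the variance trend (0.0767). Of 7 measured ubiquitin genes and shuttles, 1 was higher, Ubqln1 (0.54, SE 0.13, adjusted p = 0.034), a shuttle to the proteasome, whose call was lost without any one of the 5 arrays (adjusted p up to 0.196), with the mean of its probes (0.40, adjusted p = 0.27), without scaling (0.41, adjusted p = 0.25) and without the variance trend (0.0748).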

How the data were processed

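The authors deposited 1 linear intensity per array feature, from 1-colour (Cy3) Agilent arrays. The submitters' processing notes name Agilent Feature Extraction (version, background handling and flags not given in the sources used here). Of 45018 features, 33653 had 1 gene symbol in the platform annotation, 56 several and 11309 none. Of the named features 33517 matched GRCm38.p6 RefSeq genes by gene ID, and 0 symbols changed. Log2 intensities minus each array's 75th percentile were used. A gene was represented by its brightest probe over the 5 arrays and tested if at least 2 arrays exceeded their 40th percentile (13419 of 19087 genes). Groups came from the genotype in the titles. The comparison used a linear model per gene with moderated variances that follow mean intensity (limma 3.58.1, R 4.3.3). Its p-values, two-sided, were adjusted by Benjamini-Hochberg over all genes tested, at a threshold of 0.05. Every adjusted p is from such a fit. Pairs of subunits were compared by exact permutation over arrays. The number of arrays limits the precision. The fit was tested on simulated data.

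The members, lists and named genes were chosen with earlier results of these data known. Named genes were the immunoproteasome subunits and their partners, Psme1, genes past the threshold, the largest increase and decrease of each subcomplex, and of each related list the genes past the threshold or else the largest change. Others are examples chosen after their values were seen. Alternatives were other scalings, filters, probe rules and variance models, and leaving out each array. With only 1 control left, that array was assumed to vary like the deleted group. List members with no probe of their own name were not analysed here.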

Additional observations from a re-analysis of the deposited data

How the results depend on the processing

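Over 13 alternatives for 29 named genes, 312 of 377 fold changes kept their sign and their side of the threshold. Another 61 lost the call, 1 gained it and 3 changed sign, these 3 all in Psmb8, whose change was near 0. Only genes that passed in the main fit could lose a call, so 312 of 377 does not measure how stable the calls were. Without scaling, 669 genes were higher (38.6% of calls, against 49.5% with scaling), 0 proteasome genes were higher, and the proteasome median was -0.041. Leaving out the scaling moved the median of all genes by -0.13. It moves every log2 fold change by the same amount, so the proteasome median minus that of all genes, -0.01, could not change with it. With quantile normalization that difference was -0.054. The proteasome median was 0.15 with median scaling, 0.028 with quantile normalization and 0.051 with the mean of probes. With median scaling 56.4% of calls were higher, and Psmb8 had 0.020. Without the filter 0 proteasome genes, and 0 proteasome probes, were higher. Without the variance trend, 761 genes were higher, 0 proteasome genes were higher and 1 lower, and Psmb9, at -0.68, did not pass (adjusted p = 0.0641). The cause was not tested. The tests without filter or trend differ from the others only in genes tested or in the spread used.

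Leaving out 1 array gave 390 to 968 genes higher and 312 to 1035 lower, with the lowest counts without control 3. It left 0 proteasome genes higher and 0 to 1 lower: neither Psma8 nor Psmb9 passed without control 3 or deleted 5, Psmb9 alone without control 6, and Psma8 alone without deleted 4 or deleted 7. The log2 fold change ranged from -0.13 to 0.064 for Psmb8 (0.064 without control 3, 0.0035 without deleted 4) and from -0.83 to -0.53 for Psmb9. The difference ranged from -1.05 to -0.68 for Psmb9 minus Psmb6, from -0.47 to -0.17 for Psmb8 minus Psmb5 and from 0.18 to 0.39 for Psmb10 minus Psmb7. No paired analysis was possible because the groups share no sample numbers. No detection flags were used here, so values near or below the 40th percentile, such as those of Psma8 in deleted 4 and deleted 5, carry little weight. Fewer arrays leave less power.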

Other observations

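Psmb9, Tap1, Psmb8 and Tap2 lie side by side on chromosome 17 in the reference assembly GRCm38.p6, between the genes H2-DMa, H2-DMb2 and H2-DMb1 on one side and H2-Ob, H2-Ab1, H2-Aa and H2-Eb1 on the other. These neighbours, MHC class II genes, were set beside them after their values were seen. H2-DMa, H2-DMb2 and H2-DMb1, which encode the class II peptide-loading factor, had log2 fold changes of 3.82, 2.57 and 2.77 (limma adjusted p = 0.00030, 0.0028 and 0.00034). H2-DMb1, the nearest of them to Psmb9, stood at 0.43 and 0.24 in controls and at 3.11, 3.21 and 3.00 in deleted cells. The next 4 genes in order had -0.68 (Psmb9), -1.10 (Tap1), -0.03 (Psmb8) and -0.47 (Tap2), followed by -0.24 in H2-Ob, which did not pass (adjusted p = 0.36). H2-Ab1, H2-Aa and H2-Eb1, chains of the class II molecules, had 6.51, 7.55 and 6.94. H2-Ab1 had 13 probes and H2-Aa 2, and related class II chains can share probe signal.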
